A study of Homo sapiens with 12 samples.

Results

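The genes described here encode 6 subunits of AMP-activated protein kinase (AMPK) and STK11, the kinase LKB1 that switches it on. They were taken by symbol from a list whose rule uses no measured value, though it was drawn up with earlier results of these data known: PRKAA1 and PRKAA2 (catalytic α1 and α2), PRKAB1 and PRKAB2 (scaffold β1 and β2), PRKAG1 and PRKAG2 (regulatory γ1 and γ2) and STK11. All 7 were found among the 26475 gene symbols with counts, and 6 of them had enough counts to be tested, as did 15461 genes in all. PRKAA2 did not, with 16 counts summed over all 12 libraries.

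AMPK is the energy gauge of the cell and works as a trimer of 1 α, 1 β and 1 γ subunit. The γ subunit binds adenine nucleotides, so that a rise of AMP and ADP against ATP makes the complex a better substrate for LKB1, which phosphorylates the activation loop of the α subunit. Active AMPK slows the synthesis of lipid and protein and favours nutrient uptake, autophagy and the renewal of mitochondria. That control acts mostly on the proteins, through phosphorylation and bound nucleotides, and transcript counts do not record it.

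The libraries were strand-specific polyadenylated RNA sequencing of SUM159 cells (SUM159PT), an established human triple-negative breast cancer line, grown as tumours in female NOD scid gamma mice that were 8 weeks old when injected. These mice lack lymphocytes and natural killer cells and keep their own myeloid, stromal, endothelial and muscle cells. The hosts had cycles of a fasting-mimicking diet (FMD) on 4 consecutive days of each week, or a standard diet (CTR). Tumour cells were stained for human CD44 and CD24 and sorted as CD44-positive with low CD24 (LO) or with high CD24 (HI), which gave 4 groups of 3 libraries: FMD_LO, CTR_LO, FMD_HI and CTR_HI. All 4 groups shared the cell line, the host strain and the sort. The labels number the libraries 1 to 3 within a group and do not say how many mice or tumours stand behind each, so p-values measure the spread between these libraries, which may be in part technical.

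As a whole, the 3 libraries of FMD_LO lay away from the other 9. They held 17736610 to 18579816 counts, against 29049144 to 47587142 in the others. On the first principal component, with 57.4% of the variance, they lay at -88.9 to -79.5 and the other 9 libraries at -2.35 to 46.1. Markers of the line were high everywhere, with VIM, CD44, FN1, AXL and CAV1 summing to 13150 to 25130 CPM (counts relative to the library total, which edgeR adjusts by its TMM factor). Of 5 luminal markers, ESR1, PGR, FOXA1 and CDH1 averaged at most 1.47 CPM in any group. The fifth, GATA3, was present at 7.70 ± 0.849 CPM in FMD_LO, 16.7 ± 2.32 in CTR_LO, 11.4 ± 1.90 in FMD_HI and 13.96 ± 1.19 in CTR_HI, and it fell with the diet in CD24-low cells (log2 fold change -1.11 ± 0.16; edgeR, adjusted p = 0.000456).

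Of the 6 members tested, PRKAG2 differed between groups and no other member passed in any of the 6 comparisons. PRKAG2 transcripts were 2.83-fold higher in CD24-low cells of the fasting-mimicking diet than in those of the control diet, and PRKAG2 was the least abundant of the 6. The catalytic α1, both β subunits, γ1 and LKB1 stayed within narrow bands: the ratio of the highest to the lowest of 12 libraries was 1.29 for STK11, 1.35 for PRKAB2, 1.36 for PRKAG1, 1.50 for PRKAA1 and 1.65 for PRKAB1. For PRKAG2 that ratio was 5.38.

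**Figure D1:**
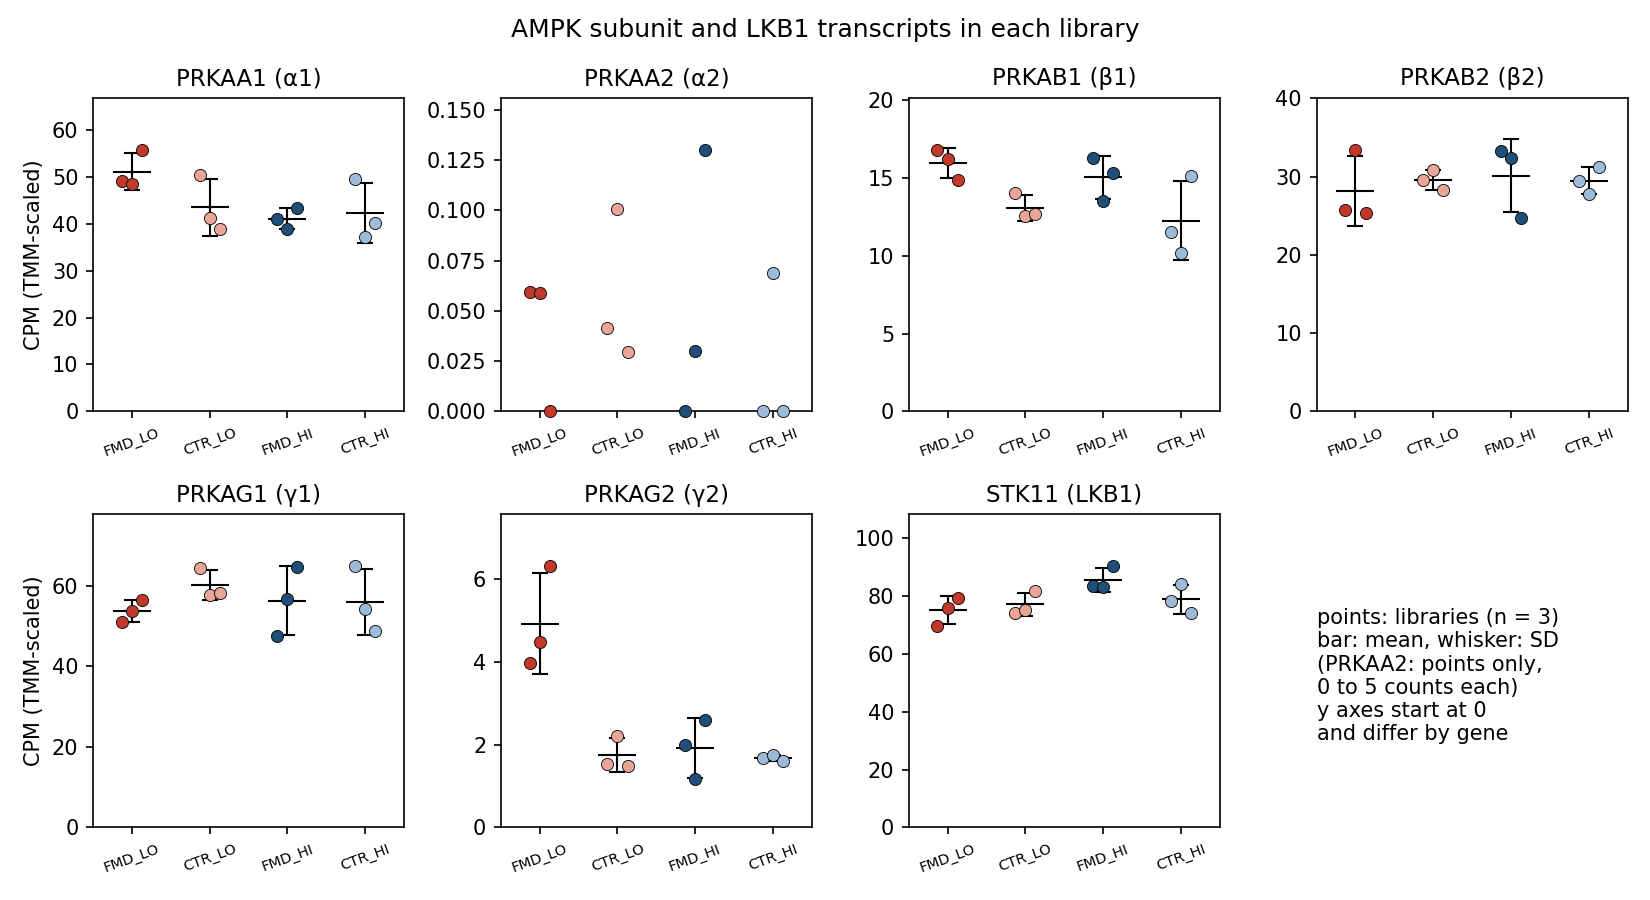
Transcript level of each member in every library, in CPM (vertical axes start at 0 and differ by gene), for the 4 groups of 3 libraries; bars are means and whiskers SD, and PRKAA2 has points only. The 3 FMD_LO libraries lie above the other 9 for PRKAG2, at 3.98 to 6.29 CPM, and within or close to the range of the other groups for the remaining members.

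The α subunit carries the kinase domain, and PRKAA1 supplied nearly all of its transcripts. PRKAA1 (chromosome 5, 40759389 to 40798374, minus strand; positions are on GRCh38.p14) stood at 49.2, 48.5 and 55.7 CPM in FMD_LO, 50.5, 41.2 and 38.9 in CTR_LO, 40.9, 38.9 and 43.4 in FMD_HI and 49.5, 37.2 and 40.1 in CTR_HI. In CD24-low cells the libraries of the diets overlapped, because CTR_LO replicate 1 was as high as the FMD_LO libraries. PRKAA2 (chromosome 1, 56645314 to 56715335, plus strand), the α2 subunit best known from skeletal and heart muscle, had 0 to 5 counts in a library. Its group totals were 2 counts in FMD_LO, 6 in CTR_LO, 6 in FMD_HI and 2 in CTR_HI, too few to show a difference. Counts per kilobase of exon put α2 at 0.0505% of the α transcripts in FMD_LO, 0.0841% in CTR_LO, 0.0785% in FMD_HI and 0.0386% in CTR_HI.

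The 300 bases around the annotated starts of the α genes (250 before to 50 after, RefSeq, GRCh38.p14) are shown because a transcribed gene and a nearly silent paralog can be set side by side. Both windows were read 5′ to 3′ on the gene's strand, chr5:40798128-40798427 (minus) and chr1:56645064-56645363 (plus).
PRKAA1: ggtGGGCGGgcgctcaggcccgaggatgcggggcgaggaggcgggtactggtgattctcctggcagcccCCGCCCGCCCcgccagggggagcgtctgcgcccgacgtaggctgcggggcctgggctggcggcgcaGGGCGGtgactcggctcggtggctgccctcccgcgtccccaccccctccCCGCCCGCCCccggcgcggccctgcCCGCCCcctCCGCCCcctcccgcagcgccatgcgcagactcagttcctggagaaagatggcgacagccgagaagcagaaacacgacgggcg
PRKAA2: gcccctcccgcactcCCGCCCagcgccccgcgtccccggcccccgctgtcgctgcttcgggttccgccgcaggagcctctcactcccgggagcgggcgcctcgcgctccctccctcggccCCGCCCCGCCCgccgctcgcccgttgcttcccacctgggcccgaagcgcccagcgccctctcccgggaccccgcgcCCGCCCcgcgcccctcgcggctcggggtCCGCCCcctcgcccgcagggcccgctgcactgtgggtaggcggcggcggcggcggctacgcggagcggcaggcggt
Capitals mark letters of the motifs searched on both strands, which were the cyclic AMP response element TGACGTCA and its TGACG core, which lies within it, the E-box CACGTG, the GC box GGGCGG, the TATA box TATAAA, the CAAT box CCAAT and the PU.1 core GAGGAAGT. The PRKAA1 window held 77.0% G and C, 36 CpG and 8 GC boxes. The PRKAA2 window held 82.7% G and C, 48 CpG and 5 GC boxes, while the median of the 35116 windows of all genes was 58.7% and 14 CpG, and 45.0% of all windows held a GC box. Both α windows were thus rich in CpG, and none of the other motifs was found in either, which says only that these letters are absent there.

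The β subunit ties α to γ and binds glycogen. PRKAB1 (chromosome 12, 119667952 to 119681619, plus strand) stood at 16.8, 16.2 and 14.9 CPM in FMD_LO, 14.05, 12.6 and 12.7 in CTR_LO, 16.3, 13.6 and 15.4 in FMD_HI and 11.5, 10.2 and 15.1 in CTR_HI. The diets did not overlap in CD24-low cells, and in CD24-high cells only CTR_HI replicate 3 reached the FMD_HI range. The log2 fold change (log2FC) was 0.28 ± 0.15 (approximate SE) in CD24-low and 0.29 ± 0.15 in CD24-high cells. Averaged over both populations it was 0.29 ± 0.11, with a 95% interval for the fold of 1.04 to 1.43 and an unadjusted p of 0.0178. By edgeR's quasi-likelihood test with Benjamini-Hochberg adjustment over all genes tested, the adjusted p was 0.0989, above the threshold of 0.05. It did not pass under 18 of 19 alternatives, with an adjusted p of up to 0.191, and was 0.024 without CTR_HI replicate 3.

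PRKAB2 (chromosome 1, 147155106 to 147172470, minus strand) stood at 25.7, 33.4 and 25.4 CPM in FMD_LO, 29.6, 30.8 and 28.3 in CTR_LO, 33.3, 32.4 and 24.7 in FMD_HI and 29.4, 27.8 and 31.2 in CTR_HI. All groups overlapped, and the largest of its log2 fold changes between 2 groups was 0.10 ± 0.14. Per kilobase of exon β2 made 50.3 ± 3.71% of the β transcripts in FMD_LO, 56.6 ± 1.90% in CTR_LO, 53.5 ± 4.94% in FMD_HI and 58.4 ± 3.54% in CTR_HI (SD, n = 3 each). The order of the β paralogs rested on the length used. With the median length of coding transcripts, an alternative added after the data were seen, β2 held 39.2% in FMD_LO, 45.3% in CTR_LO, 42.2% in FMD_HI and 47.2% in CTR_HI. With either length its mean share was lower in the FMD group of each population, a description without a test.

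The γ subunit holds the nucleotide-binding sites. PRKAG1 (chromosome 12, 49002274 to 49018776, minus strand), the γ1 subunit of most tissues, stood at 51.2, 53.7 and 56.4 CPM in FMD_LO, 64.4, 57.8 and 58.3 in CTR_LO, 47.5, 56.7 and 64.8 in FMD_HI and 64.8, 54.3 and 48.9 in CTR_HI. Every FMD_LO library lay below every CTR_LO library, and the log2FC of -0.16 ± 0.13 did not pass (edgeR, adjusted p = 0.441). In CD24-high cells the diets overlapped over almost their whole range.

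PRKAG2 (chromosome 7, 151556127 to 151877115, minus strand), the γ2 subunit whose mutations cause a glycogen-storing heart disease, stood at 3.98, 4.47 and 6.29 CPM in FMD_LO, 1.53, 2.22 and 1.49 in CTR_LO, 1.98, 1.17 and 2.60 in FMD_HI and 1.67, 1.76 and 1.60 in CTR_HI. Every FMD_LO library was above every library of the other 3 groups, which overlapped among themselves. These levels rested on 67, 76 and 116 counts in FMD_LO, 74, 66 and 50 in CTR_LO, 63, 39 and 100 in FMD_HI and 56, 51 and 56 in CTR_HI. Reads on the opposite strand of the gene numbered 9 against 814 on its own over all libraries, and 0.851% of the 31-base words of its transcripts also occur in transcripts of other genes.

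In CD24-low cells PRKAG2 rose with the fasting-mimicking diet, with a log2FC of 1.50 ± 0.30 (fold 2.83, 95% interval 1.81 to 4.43; edgeR, adjusted p = 0.00393). It passed under all 20 alternative settings, with log2FC from 1.27 to 1.70 and an adjusted p of at most 0.0228, and thinning every library to the same total gave 1.70. In CD24-high cells the log2FC was 0.20 ± 0.30 (fold 1.15, 95% interval 0.733 to 1.80; edgeR, adjusted p = 0.992), and it was -0.09 without FMD_HI replicate 3. The interval in CD24-high cells includes a fold of 1.

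The test of the difference between these diet effects did not pass over all genes: the log2 difference was 1.30 ± 0.42, with an unadjusted p of 0.00862 and an adjusted p of 0.122 by edgeR. With the replicate number as a block within each diet, chosen after the data were seen, the adjusted p was 0.0244. Averaged over both populations PRKAG2 was called at 0.85 ± 0.21 (edgeR, adjusted p = 0.0227), a mean of unequal parts. That call was lost without CTR_LO replicate 1 (0.0529), CTR_LO replicate 3 (0.0547) or CTR_HI replicate 1 (0.0521).

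Between populations PRKAG2 was lower in CD24-high than in CD24-low cells under the fasting-mimicking diet, with a log2FC of -1.35 ± 0.30 (fold 0.391, 95% interval 0.251 to 0.611; edgeR, adjusted p = 0.00676), and it passed under all 21 alternatives. Under the control diet the log2FC was -0.05 ± 0.30 (fold 0.964, 95% interval 0.614 to 1.51; edgeR, adjusted p = 1). The population contrast under the fasting-mimicking diet and the diet contrast in CD24-low cells share the FMD_LO libraries and are not independent of each other.

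Among γ transcripts per kilobase of exon, γ2 held 3.88 ± 0.742% in FMD_LO, 1.28 ± 0.344% in CTR_LO, 1.49 ± 0.509% in FMD_HI and 1.32 ± 0.172% in CTR_HI (SD, n = 3 each). The 3 FMD_LO libraries, at 3.33% to 4.72%, lay above every other library, where the highest was 1.82%. γ1 therefore remained the main γ transcript in every library. PRKAG3, a γ3 subunit of skeletal muscle and not one of the 7, was near the floor of detection with 1 count in FMD_LO, 21 in CTR_LO, 16 in FMD_HI and 20 in CTR_HI. Pooled over 3 libraries that was 0.0191 CPM in FMD_LO (exact Poisson 95% interval 0.000484 to 0.107) and 0.188 CPM in CTR_LO (0.116 to 0.287), intervals that cover counting error only.

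**Figure D2:**
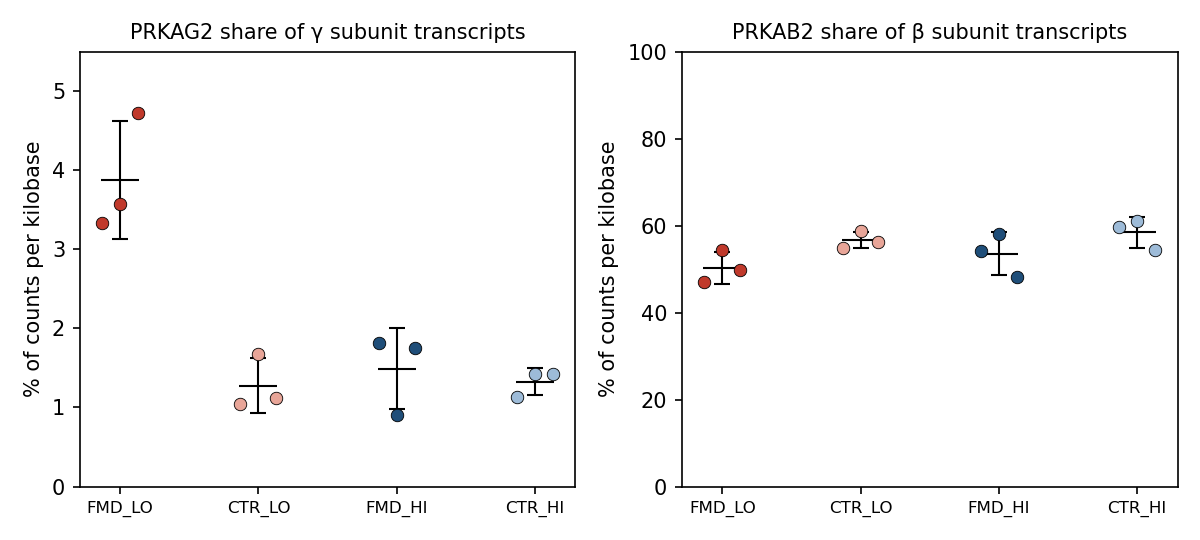
Share of PRKAG2 among the γ subunit transcripts (left) and of PRKAB2 among the β subunit transcripts (right), in percent of counts per kilobase of exon, for each library; bars are means and whiskers SD of 3 libraries, and the vertical axes differ. The γ2 share averages 3.88% in FMD_LO and 1.28% to 1.49% in the other groups, while the β2 share averages 50.3% to 58.4%.

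PRKAG2 has 5 annotated start windows in RefSeq, which lie over 245 kilobases and range from 46.3% to 86.0% G and C. The outermost and the innermost are shown because the reads were counted per gene and do not say which start was used: chr7:151877066-151877365 and chr7:151632184-151632483, both minus strand.
PRKAG2 outermost start: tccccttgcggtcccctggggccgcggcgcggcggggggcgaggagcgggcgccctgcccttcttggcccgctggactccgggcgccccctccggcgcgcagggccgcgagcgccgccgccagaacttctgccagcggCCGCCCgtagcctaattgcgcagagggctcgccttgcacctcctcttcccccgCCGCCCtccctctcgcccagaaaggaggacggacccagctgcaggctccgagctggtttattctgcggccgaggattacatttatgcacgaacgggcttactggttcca
PRKAG2 innermost start: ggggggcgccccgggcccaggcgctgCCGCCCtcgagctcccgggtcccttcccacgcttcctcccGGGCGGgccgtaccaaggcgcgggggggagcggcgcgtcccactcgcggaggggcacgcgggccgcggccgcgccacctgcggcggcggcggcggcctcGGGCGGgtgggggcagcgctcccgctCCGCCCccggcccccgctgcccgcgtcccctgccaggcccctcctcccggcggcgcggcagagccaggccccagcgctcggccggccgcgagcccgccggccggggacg
Capitals mark GC boxes, 2 in the outermost and 4 in the innermost window. Of the 5 windows, 1 held a PU.1 core (chr7:151633062-151633361, on the opposite strand), as did 2.59% of all 35116 windows. The TGACG core was found in 2 of the 5, against 24.6% of all windows. A match is a run of letters and not a bound site.

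STK11 (chromosome 19, 1205778 to 1228431, plus strand), the tumour suppressor kinase upstream of AMPK, stood at 69.7, 75.8 and 79.3 CPM in FMD_LO, 74.2, 75.3 and 81.6 in CTR_LO, 83.3, 83.0 and 90.2 in FMD_HI and 78.4, 84.0 and 74.0 in CTR_HI. The diets overlapped in both populations. Its log2FC between diets was -0.04 ± 0.10 in CD24-low cells (fold 0.973, 95% interval 0.837 to 1.13) and 0.12 ± 0.10 in CD24-high cells (fold 1.09, 0.934 to 1.26). Under the fasting-mimicking diet every FMD_HI library was above every FMD_LO library, with a log2FC of 0.19 ± 0.10 that did not pass (edgeR, adjusted p = 0.259).

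Set against the whole transcriptome, the share of members called was close to that of all genes. In CD24-low cells 1 of the 6 tested was called between diets, while 16.4% of the 15461 genes were (12% higher and 4.33% lower), and 3 of the 6 had groups without overlap, while 37.5% of all genes did. Between populations under the fasting-mimicking diet 1 of 6 was called, against 14% of all genes (1.84% higher and 12.2% lower), and 3 of 6 did not overlap, against 31.4%. Averaged over populations 1 of 6 was called against 11.1% of genes, and for the interaction 0 of 6 against 4.13%. Between diets in CD24-high cells, and between populations under the control diet, 0 of 6 members and 0% of genes passed with edgeR, with 1042 and 91 genes (6.74% and 0.589%) at an unadjusted p under 0.05, none of them a member. In those comparisons 0 of 6 members had groups without overlap, against 9.19% and 3.43% of genes. DESeq2 called 78 genes in that diet comparison and 0 in that population comparison.

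For the members not called, the intervals bound the size of a difference. Between diets the 95% intervals of the 5 uncalled members spanned folds of 0.73 to 1.53 in CD24-low cells, and those of all 6 spanned 0.733 to 1.80 in CD24-high cells, with PRKAG2 the widest. PRKAA1 was lower in CD24-high than in CD24-low cells under the fasting-mimicking diet in every library, at a log2FC of -0.32 ± 0.14 (fold 0.803, 95% interval 0.656 to 0.983) and an unadjusted p of 0.0357. With edgeR the adjusted p was 0.154, and 0.0135 with the replicate number as a block within each diet. By p-value PRKAG2 ranked 870th of 15461 genes in the diet contrast of CD24-low cells, so 5.63% of genes had a p as small.

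**Figure D3:**
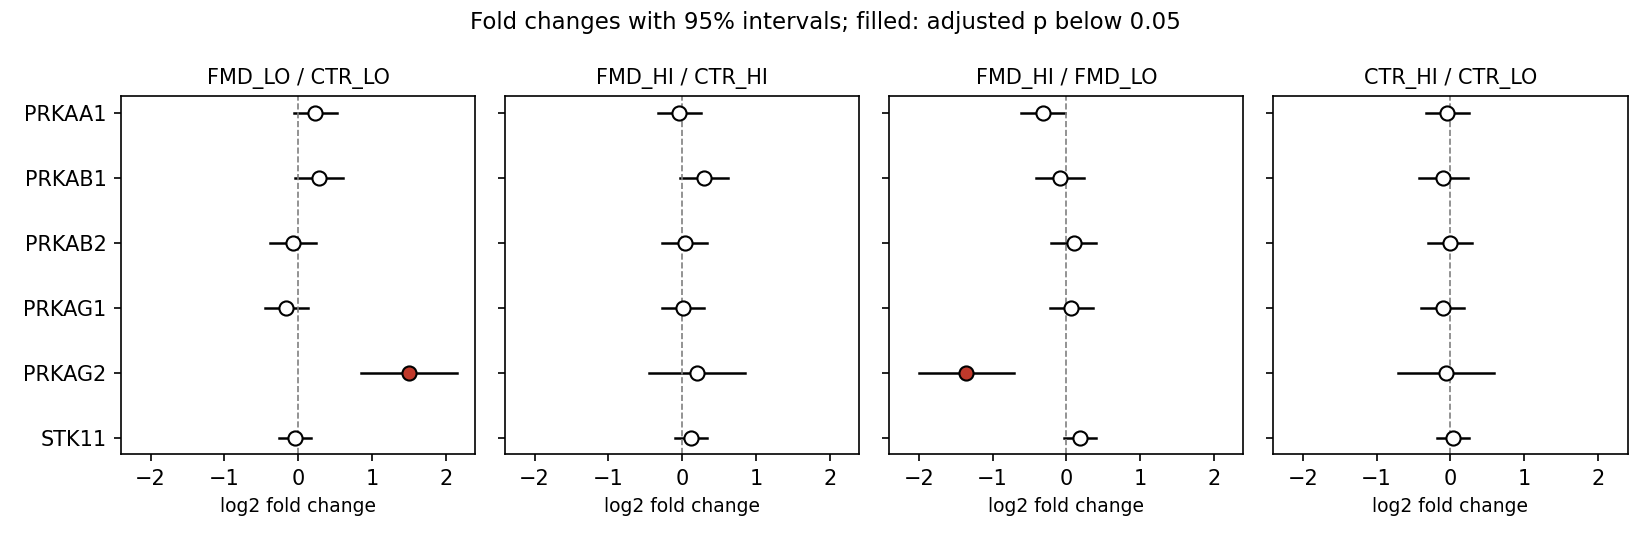
Fitted log2 fold changes of the 6 members tested (horizontal axes) with 95% intervals, for the diets in each population and for the populations under each diet; filled points passed an adjusted p of 0.05 by edgeR. PRKAG2 is the filled point, at 1.50 for FMD_LO over CTR_LO and -1.35 for FMD_HI over FMD_LO, and of the unfilled intervals only that of PRKAA1 for FMD_HI over FMD_LO, at -0.61 to -0.02, leaves out 0.

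Set out per kilobase of exon and averaged over the 12 libraries, the levels ran from PRKAG1 (29.2 ± 3.06 CPM per kilobase) over STK11 (25.3 ± 1.80), PRKAA1 (7.59 ± 1.01), PRKAB2 (5.42 ± 0.559), PRKAB1 (4.50 ± 0.656) and PRKAG2 (0.588 ± 0.356) to PRKAA2 (0.00462 ± 0.00454; SD, n = 12 each). PRKAG1 was above STK11 in 11 of 12 libraries and PRKAB2 above PRKAB1 in 9 of 12, and the spreads of these neighbours met. Each of the other neighbours kept its order in 12 of 12 libraries. With median coding transcript lengths the order of the β genes turned round, PRKAB1 at 7.09 and PRKAB2 at 5.42 CPM per kilobase, and PRKAA1 came to 23.2.

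The members did not vary as a unit. Over the 12 libraries, Pearson's r of log2 CPM between pairs of the 6 members ran from -0.43 (PRKAA1 with STK11) to 0.68 (PRKAA1 with PRKAG2), given as descriptions, since the points share groups and depth. Among 10730 genes with a mean of at least 5 CPM, those closest to PRKAG2 included CORO1A (r = 0.967) and RRAGA (0.966), both with every FMD_LO library above the other 9. Closest to PRKAA1 were ACTR2 (0.947), NSF (0.942) and ZDHHC13 (0.931), and to PRKAG1 CCDC82 and PWP1 (0.955 each) and PCTP (0.938). Those closest to STK11 included NME3 (0.933) and HAGHL (0.909). Closest to PRKAB1 were TECPR1 (0.914), GPC6 (0.893) and ACTR1B (0.884), and closest to PRKAB2 TBC1D22B (0.870), SMC5 (0.856) and ARPP19 (0.844).

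Marker sums of leukocytes, fibroblasts and skeletal muscle were, like PRKAG2, higher in every FMD_LO library than in any other library. Within FMD_LO the orders differed. PRKAG2 was highest in replicate 3 (6.29 CPM), where the fibroblast and muscle sums were the lowest of that group (44640 and 68.4 CPM). In that replicate the endothelial and adipocyte marker sums were the highest of FMD_LO (97.0 and 10.3 CPM). The leukocyte sum there (157 CPM) was neither the highest nor the lowest. These orders within 3 libraries were not tested. In FMD_LO the 11 leukocyte markers summed to 148 to 173 CPM, against 14.9 to 24.7 in CTR_LO, 28.7 to 41.4 in FMD_HI and 18.5 to 26.9 in CTR_HI. Of the 7 that could be tested, 5 were called higher between diets in CD24-low cells (edgeR), beside 12% of all genes. The count filter can keep a gene through FMD_LO alone, which can raise the share of calls among tested markers. TYROBP was at 0 in FMD_LO and CD3E in both CD24-high groups. The 9 fibroblast markers summed to 44640 to 66510 CPM in FMD_LO, 18420 to 32400 in CTR_LO, 13310 to 16450 in FMD_HI and 15300 to 27920 in CTR_HI. Of these 9, 5 were called higher between diets in CD24-low cells, beside the same 12% of all genes. SUM159 is itself mesenchymal, and several of these fibroblast genes are not specific to the host's stroma.

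The 8 skeletal muscle markers summed to 68.4 to 104 CPM in FMD_LO, 5.38 to 14.4 in CTR_LO, 3.93 to 7.17 in FMD_HI and 5.07 to 9.10 in CTR_HI, with MYH4 at 0 in both CD24-low groups. Of the 4 muscle markers tested, 2 were called higher between diets in CD24-low cells, beside 12% of all genes. Here too the count filter can keep a marker through FMD_LO alone, so these shares are not on equal terms. Only those 2 had a positive log2FC there. Averaged over populations 1 was called higher and 1 lower, beside 7.74% and 3.32% of all genes. The 7 endothelial markers summed to 81.6 to 97.0 CPM in FMD_LO and 55.4 to 86.6 elsewhere, with 2 of 7 called higher between diets in CD24-low cells. Adipocyte markers summed to at most 10.7 CPM in any library, and none of the 10 genes of the dissociation and stress list was called between diets in CD24-low cells. The part of other cells, or of mouse reads, in the PRKAG2 difference was not tested, and in bulk RNA fewer cells of a type and less RNA per cell cannot be told apart.

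**Figure D4:**
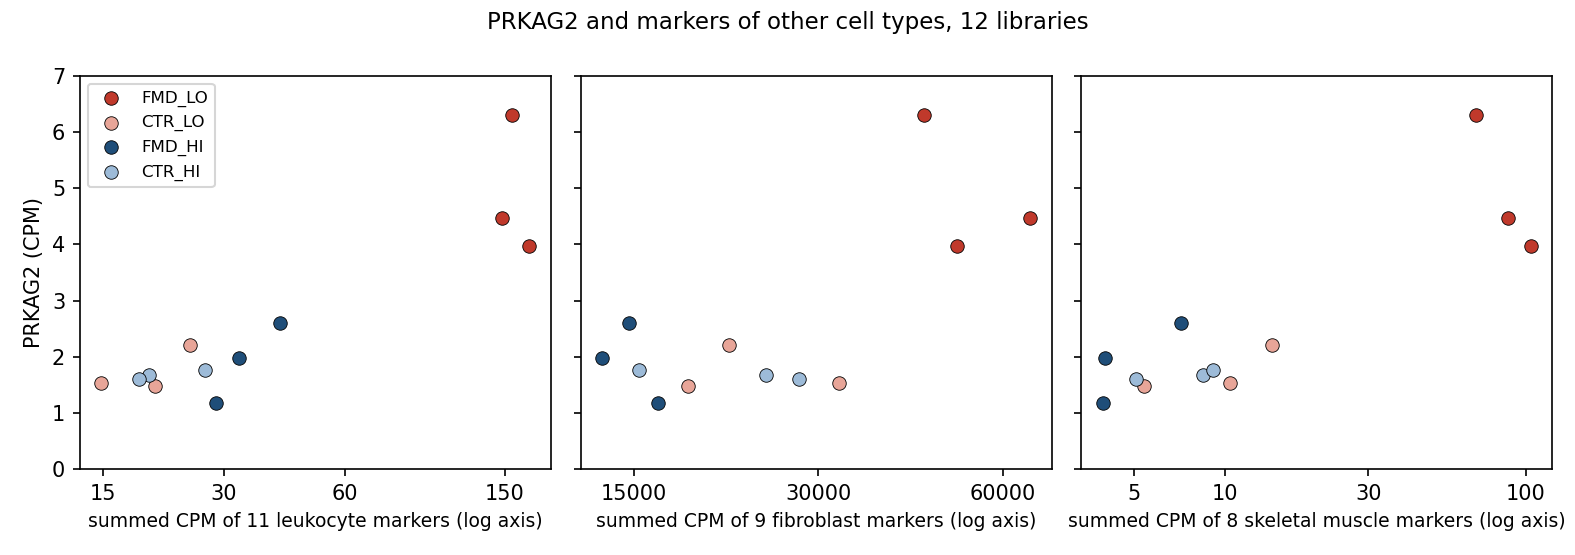
PRKAG2 level (vertical axis, CPM) against the summed level of leukocyte, fibroblast and skeletal muscle markers (horizontal log axes, CPM) in the 12 libraries. The 3 FMD_LO libraries lie apart at the upper right of each panel, with PRKAG2 at 3.98 to 6.29 CPM and leukocyte markers at 148 to 173 CPM, and among the other 9 libraries PRKAG2 stays between 1.17 and 2.60 CPM.

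Around the 7 genes, 12 lists held 99 further genes of the pathway, and 96 of them could be tested. In CD24-low cells 24 were higher and 2 lower with the fasting-mimicking diet, which is 27.1% of those tested, beside 12% higher and 4.33% lower of all genes, and the median log2FC was 0.12 beside -0.03 over all genes. In CD24-high cells 0 passed with edgeR. Between populations under the fasting-mimicking diet 3 were higher and 19 lower in CD24-high cells, beside 1.84% and 12.2% of all genes. With the replicate number as a block within each diet these were 9 and 25, and without FMD_LO replicate 2 they were 0 and 14. The count of 24 fell to 14 without FMD_LO replicate 1, and over all alternatives it lay between 14 and 31.

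Genes that restrain AMPK were among those that rose. Of the 9 phosphatases and members of the folliculin complex, 4 rose with the diet in CD24-low cells and 0 fell, and the median log2FC was 0.64. Of all genes 12% were called higher and 4.33% lower in this contrast, shares that belong beside the count of each list below as well. FNIP1, a partner of folliculin that binds AMPK, stood at 55.7 ± 11.96 CPM in FMD_LO and 17.7 ± 2.24 in CTR_LO (log2FC 1.66 ± 0.18; edgeR, adjusted p = 3.69e-05). PPP2CA, a catalytic subunit of protein phosphatase 2A, stood at 312 ± 29.01 and 140 ± 23.5 CPM in the same groups (1.15 ± 0.15, adjusted p = 0.000235 by edgeR), and PPM1A, a phosphatase that can remove the activating phosphate, at 94.4 ± 6.95 and 49.6 ± 7.21 CPM (0.93 ± 0.14, adjusted p = 0.000548). FLCN itself, at 35.97 ± 7.42 in FMD_LO and 23.2 ± 1.74 in CTR_LO, was called at 0.63 ± 0.19 (adjusted p = 0.0383). FLCN lost that call without each of the CD24-low libraries other than FMD_LO replicate 3, at adjusted p of 0.053 to 0.132, and with upper-quartile scaling (0.0545).

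Partners of LKB1 and its other client kinases held fewer calls by number, 1 of 4 and 3 of 12, and the lists were not tested against each other. CAB39, the MO25 scaffold that holds LKB1 in its active form, was the 1 of 4 partners that rose in CD24-low cells, at 65.7 ± 3.28 CPM in FMD_LO and 48.4 ± 5.46 in CTR_LO (0.44 ± 0.11; edgeR, adjusted p = 0.0137, and 0.0722 without CTR_LO replicate 1, 0.0533 and 0.0542 without FMD_LO replicates 1 and 2). None of the 3 other upstream kinases (CAMKK1, CAMKK2 and MAP3K7) was called. Of 12 AMPK-related kinases that LKB1 activates, 3 rose: SIK3, which holds CRTC coactivators in the cytoplasm, at 49.8 ± 11.7 CPM in FMD_LO and 24.5 ± 3.23 in CTR_LO (1.02 ± 0.19; edgeR, adjusted p = 0.00262), the polarity kinase MARK2 (0.78 ± 0.18, adjusted p = 0.0111) and BRSK1 (0.64 ± 0.17, adjusted p = 0.0219). MARK2 missed the threshold without FMD_LO replicate 1 (0.0501) and BRSK1 without FMD_LO replicate 1 (0.0613) or 2 (0.103) or CTR_LO replicate 2 (0.0563) or 3 (0.0954).

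Of 8 genes of the lysosomal platform on which LKB1 meets AMPK, 2 rose: ATP6V1A, the catalytic subunit of the proton pump, at 79.8 ± 14.1 CPM in FMD_LO and 35.6 ± 2.89 in CTR_LO (1.16 ± 0.14; edgeR, adjusted p = 9.26e-05), and ATP6V0C (0.45 ± 0.14, adjusted p = 0.0404), a call lost under 10 of 20 alternatives. For ATP6V0C these were upper-quartile scaling, no count filter and 8 libraries left out, namely all of CTR_LO, FMD_LO replicates 1 and 2, FMD_HI replicates 2 and 3 and CTR_HI replicate 1 (0.0507 to 0.171). None of the 5 LAMTOR genes or AXIN1 passed.

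AMPK substrates are given by branch, and the branches were not tested against each other. Of 8 in autophagy and mitochondrial dynamics, 4 rose and 0 fell in CD24-low cells: ULK2, an autophagy-starting kinase, stood at 19.4 ± 1.38 CPM in FMD_LO and 8.61 ± 1.22 in CTR_LO (1.16 ± 0.18; edgeR, adjusted p = 0.000567), and BECN1 at 109 ± 9.41 and 63.5 ± 3.16 CPM (0.78 ± 0.10, adjusted p = 0.000202). ATG9A (0.43 ± 0.11, adjusted p = 0.0164) lost its call without FMD_LO replicate 1 (0.091) or CTR_LO replicate 1 (0.085), and MTFR1L (0.37 ± 0.12, adjusted p = 0.0416) under 12 of 20 alternatives. For MTFR1L these included each of the 6 CD24-low libraries left out, FMD_HI replicate 2 and CTR_HI replicate 1 (0.0508 to 0.158). ULK1, the paralog of ULK2, was not called.

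Of 9 substrates that act in transcription, 3 rose: CRTC2, a CREB coactivator (1.54 ± 0.15; edgeR, adjusted p = 1.82e-05), the class IIa deacetylase HDAC5, at 175 ± 24.3 CPM in FMD_LO and 68.5 ± 7.38 in CTR_LO (1.35 ± 0.19, adjusted p = 0.000338), and its paralog HDAC4 (0.72 ± 0.22, adjusted p = 0.0387, lost under 7 of 20 alternatives). For HDAC4 these included each of the CD24-low libraries left out other than FMD_LO replicate 3 (0.0559 to 0.151). Of 5 in growth and protein synthesis, the cell cycle inhibitor CDKN1B rose (0.49 ± 0.14; edgeR, adjusted p = 0.0262). CDKN1B lost that call without FMD_LO replicate 2 (0.111) or CTR_LO replicate 1 (0.0575) or 3 (0.0922), and with upper-quartile scaling (0.0514). EEF2K, the kinase that halts elongation, was higher in CD24-high than in CD24-low cells under the fasting-mimicking diet, at 42.4 ± 0.927 CPM in FMD_HI and 31.2 ± 4.39 in FMD_LO (0.44 ± 0.13, adjusted p = 0.0312), a call lost under 7 of 21 alternatives, which included FMD_LO replicates 1 and 2 and each FMD_HI library left out (0.0607 to 0.145).

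Of 7 substrates in lipid and sterol synthesis, the class AMPK is best known for, 0 were called between diets in CD24-low cells, and the median log2FC was -0.16. GPAM, which starts triglyceride synthesis, was called when the diets were averaged (0.37 ± 0.10; edgeR, adjusted p = 0.0285), a call lost with upper-quartile scaling (0.0506) and without replicate 1 of any group (0.0564 to 0.0765). Between populations it stood at 19.0 ± 1.50 CPM in FMD_HI and 13.8 ± 2.04 in FMD_LO (0.47 ± 0.14, adjusted p = 0.0394, lost under 8 of 21 alternatives). For GPAM these included FMD_LO replicates 2 and 3, each FMD_HI library and CTR_HI replicate 3 left out (0.0521 to 0.173).

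Of 8 substrates in glucose handling, 1 fell in CD24-low cells and 0 rose. TBC1D4 (AS160), which holds glucose transporters inside the cell until it is phosphorylated, stood at 13.9 ± 2.33 CPM in FMD_LO and 20.2 ± 2.27 in CTR_LO (-0.54 ± 0.17; edgeR, adjusted p = 0.0413). TBC1D4 lost that call without FMD_LO replicate 2 (0.153) or 3 (0.0621), CTR_LO replicate 1 (0.109) or 2 (0.0771) or FMD_HI replicate 1 (0.0521), and with only the groups compared (0.0511). Averaged over both populations it fell by 0.52 ± 0.12 on the log2 scale (adjusted p = 0.0132), and this call held under all 19 alternatives. PFKFB3, which makes the activator of phosphofructokinase, was called in that average alone (0.73 ± 0.18, adjusted p = 0.0228), at 381 ± 112 CPM in FMD_LO and 221 ± 37.0 in CTR_LO, and the call was lost without CTR_LO replicate 3 (0.0511), FMD_HI replicate 1 (0.0504) or CTR_HI replicate 1 (0.0557). TBC1D1, the paralog of TBC1D4, was lower in CD24-high cells under the fasting-mimicking diet, at 24.0 ± 0.80 CPM in FMD_HI and 34.96 ± 3.51 in FMD_LO (-0.54 ± 0.15, adjusted p = 0.0246). TBC1D1 lost that call without FMD_LO replicate 1 (0.102) or 2 (0.0588) or FMD_HI replicate 2 (0.0754) or 3 (0.0736).

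Of 8 factors of mitochondrial and lysosomal biogenesis, 3 rose in CD24-low cells: MITF, a relative of the lysosomal regulator TFEB, at 9.10 ± 2.57 CPM in FMD_LO and 2.65 ± 0.861 in CTR_LO (1.77 ± 0.28; edgeR, adjusted p = 0.000743), NRF1, which drives genes of respiration, at 26.2 ± 0.817 and 15.03 ± 0.624 CPM (0.80 ± 0.12, adjusted p = 0.000416), and ESRRA (0.51 ± 0.12, adjusted p = 0.013, and 0.0655 without CTR_LO replicate 1 and 0.0569 without FMD_LO replicate 1). Of 18 genes that make or remove AMP, 15 could be tested, 3 rose and 1 fell. NT5C2, which takes the phosphate off IMP and other purine nucleotides, stood at 60.2 ± 3.65 CPM in FMD_LO and 36.6 ± 3.53 in CTR_LO (0.71 ± 0.12, adjusted p = 0.00136), and ADSS1 (listed as ADSSL1), a muscle-type enzyme on the path to AMP, at 22.9 ± 5.79 and 9.82 ± 1.49 CPM (1.22 ± 0.21, adjusted p = 0.00154). The AMP deaminase AMPD2 was the third that rose (0.63, adjusted p = 0.0237), and APRT, which salvages adenine, fell by 0.35 ± 0.11 on the log2 scale (adjusted p = 0.0455), a call lost under 16 of 20 alternatives. For APRT these included every library left out other than CTR_LO replicate 1 (0.0507 to 0.215). AK3, a mitochondrial adenylate kinase, was called in the diet average (0.26 ± 0.07, adjusted p = 0.0281), lost under 8 of 19 alternatives. For AK3 these included FMD_LO replicates 1 and 2, CTR_LO replicates 1 and 3, FMD_HI replicate 2 and CTR_HI replicate 1 left out (0.0505 to 0.0674).

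The rises in these lists stand beside the same shift of leukocyte, fibroblast and muscle marker sums in FMD_LO as that of PRKAG2, and the part of other cells in them was not tested either. By scaling, the balance of calls over all genes in this contrast was 73.5% higher, and 54.5% with upper-quartile scaling, under which the lists held up to 5 lower genes.

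**Figure D5:**
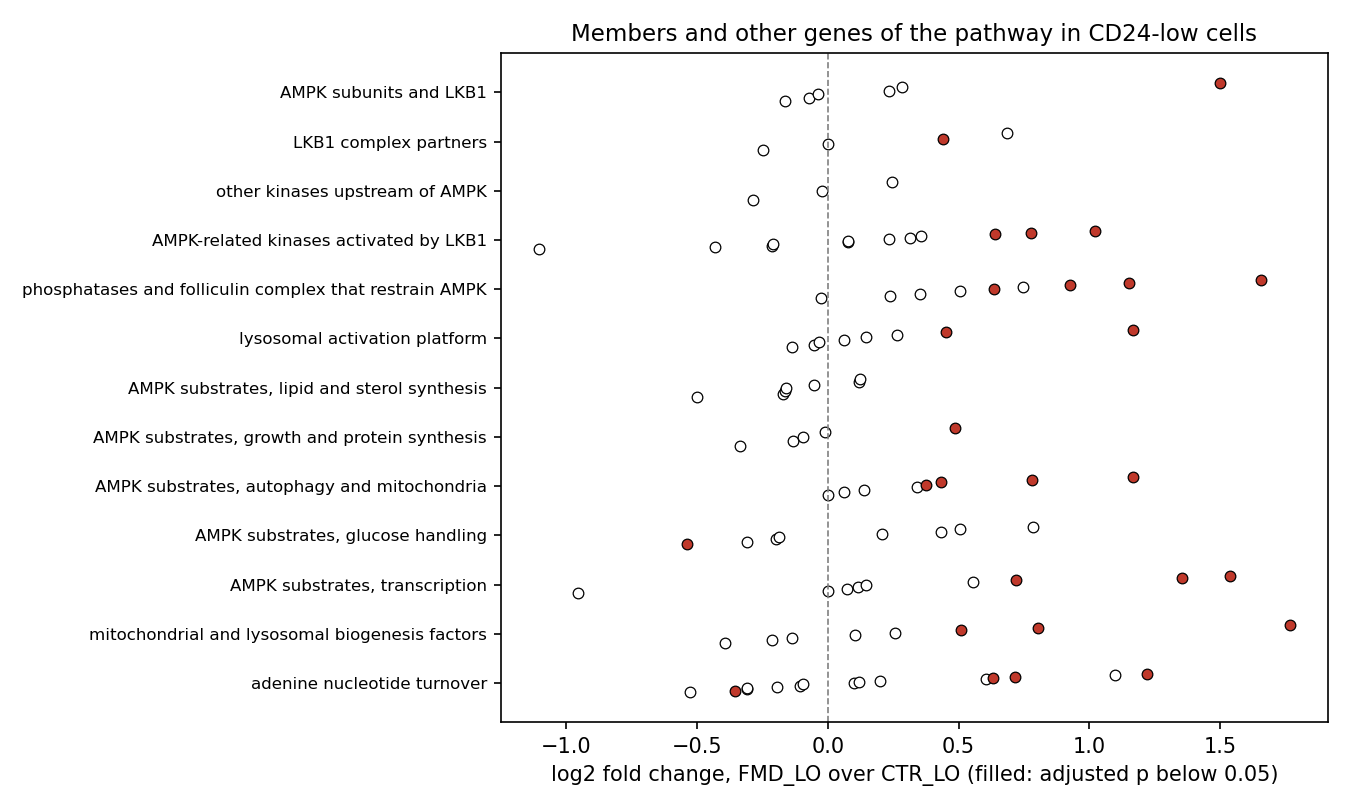
Log2 fold change of FMD_LO over CTR_LO (horizontal axis) for each tested gene among the members and in 12 lists of the pathway (rows); filled points passed an adjusted p of 0.05 by edgeR. Among the members 1 of 6 points is filled, and in the lists 24 of 96 are filled to the right of 0 and 2 to the left.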

How the data were processed

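The deposited values were raw counts of reads per gene symbol for each library, with columns for either strand and for each strand. The authors made them with STAR on hg38, per the submitters' processing notes; the version, the annotation release and any removal of mouse reads are details not given in the sources used here. Counts of the reverse strand were used, as the kit is stranded in that sense, and the opposite strand held 1.59% to 1.75% of stranded reads. Totals of 17736610 to 47587142 counts set the depth.

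The 4 groups of 3 were fitted together with edgeR 4.0.16 in R 4.3.3 (quasi-likelihood, robust, TMM, default count filter by group), which left 8 degrees of freedom for the spread (biological coefficient of variation 0.19). The count filter kept 15461 of 26475 genes. The 6 contrasts were diets within each population, diets averaged, populations within each diet, and the interaction. A gene was called at an adjusted p below 0.05 (Benjamini-Hochberg over all genes tested). The standard error is approximate, from the fold change and the quasi-likelihood F. The procedure was tested on simulated independent libraries with as many genes raised as lowered. That setting lacks the one-sided balance of calls and the likeness of same-numbered libraries in these data, so it did not check their effect.

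Named were all members, the genes called in any contrast from each list (at most 4 by smallest p), PRKAG3 and, per member, the 3 genes with the highest correlation of log2 CPM (prior count 2); some of these are not reported here. AMPD2 was added after its values were seen, to complete a count. The members, lists and tests were chosen with earlier results of these data known. Lengths came from GENCODE v29, positions and start windows from RefSeq on GRCh38.p14, whose primary chromosomes are those of hg38.

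Alternatives were either strand, RLE and upper-quartile scaling, DESeq2 1.42.0, all genes with a count, fits of the compared groups alone, a replicate block, thinning to equal totals and each library left out, and 2 were added after the data were seen. Deviations from the group means of same-numbered FMD_LO and FMD_HI libraries correlated at 0.444, 0.285 and 0.485, and those of CTR_LO and CTR_HI at 0.445, 0.522 and 0.0373. Between diets the correlations ran from -0.221 to 0.0824. The labels do not say what same-numbered libraries shared, so a pairing by number is an assumption, and the main fit did not use it. Replicates were not repeat sequencing of the same library, since their counts differed beyond counting noise (median chi-square 2.24 to 6.91 per gene, against 0.455 from counting alone). That does not show whether they came from separate tumours.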

Additional observations from a re-analysis of the deposited data

Results flagged for a closer look

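In 11 of 96 pathway genes tested (11.5%) the diet effect in CD24-low cells differed from that in CD24-high cells by a test of the difference (edgeR interaction, adjusted over all genes), while 4.13% of all genes did. The count was 7 without CTR_LO replicate 3, and 18 with the replicate number as a block within each diet. Among the genes that restrain AMPK these were FNIP1, with a log2 difference of 1.41 (adjusted p = 0.00543), PPP2CA, with 1.08 (0.0135), and PPM1A, with 1.04 (0.00897). FNIP1 averaged 55.7 CPM in FMD_LO and 17.7 in CTR_LO, but 21.0 in FMD_HI and 17.7 in CTR_HI. PPP2CA averaged 312 CPM in FMD_LO and 140 in CTR_LO, but 137 in FMD_HI and 130 in CTR_HI.

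On the transcriptional side they were CRTC2 (1.38, adjusted p = 0.00207), HDAC5 (1.18, 0.0228), MITF (2.07, 0.00917) and NRF1 (0.80, 0.0147) by edgeR. MITF averaged 9.10 CPM in FMD_LO and 2.65 in CTR_LO, but 2.32 in FMD_HI and 2.86 in CTR_HI. At the lysosome and in autophagy they were ATP6V1A (1.18, adjusted p = 0.00422), ULK2 (1.10, 0.0228) and BECN1 (0.59, 0.0382), and in nucleotide turnover NT5C2 (0.66, 0.0496). The call of BECN1 was lost under 13 of 20 alternatives, among them every library left out other than FMD_LO replicate 1 and CTR_HI replicate 3 (0.0591 to 0.124). That of NT5C2 was lost under 14 of 20, among them every library left out other than CTR_LO replicate 1 and CTR_HI replicate 2 (0.0647 to 0.127). That of ULK2 was lost without FMD_LO replicate 1 (0.0576), CTR_LO replicate 3 (0.06), FMD_HI replicate 3 (0.0544) or CTR_HI replicate 1 (0.0532) and after thinning (0.0541), and that of HDAC5 without FMD_LO replicate 1 (0.0535) or 2 (0.0586), CTR_LO replicate 3 (0.0525) or CTR_HI replicate 3 (0.0514). Leukocyte, fibroblast and muscle marker sums were highest in the same FMD_LO libraries, and their part in these differences was not tested. PRKAG2, the only member that was called in any contrast, showed a difference of 1.30 that did not pass (adjusted p = 0.122).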

How the results depend on the processing

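The 3 calls of PRKAG2 were tried under 60 alternatives and stood in 57; the 3 losses were in the average of the diets. The 33 values of members not called gave 622 of 666 alternatives with the same sign and no call, 41 with the other sign and 3 calls, and none of the 41 was a call.

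Counts of genes called moved as follows. Between diets in CD24-high cells, 0 with edgeR became 1 without the count filter, 78 with DESeq2, 1 with a replicate block and 0 to 1 with a library left out. With a library left out, calls between diets ran from 1562 (without FMD_LO replicate 2; 1662 without FMD_LO replicate 1 and 1577 without CTR_LO replicate 3) to 2795 in CD24-low cells, against 2533, from 969 to 2041 averaged over populations, against 1711, and from 380 to 767 for the interaction, against 638. The lowest of these last 2 were also without FMD_LO replicate 2. DESeq2 gave 1127 for the interaction. The replicate block within each diet, added after the data were seen, gave 4201 calls between populations under the fasting-mimicking diet, against 2163, and 1702 for the interaction. It also made calls of PRKAA1 between those populations (-0.32, adjusted p = 0.0135) and of PRKAG2 for the interaction (1.35, adjusted p = 0.0244); the block by number over all groups changed no call of a member. Same-numbered control libraries of replicate 3 hardly correlated (0.0373), so a pairing by number, which the labels do not give, is least certain there.

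Signs turned in members that were not called. The largest such main value was the diet effect of PRKAG2 in CD24-high cells, 0.20, which was -0.09 without FMD_HI replicate 3 and 0.47 without FMD_HI replicate 2. With upper-quartile scaling the diet effect was -0.004708 for PRKAB2 and -0.01666 for PRKAG1 in CD24-high cells and -0.02211 for STK11 on average. Between populations under the control diet PRKAB2 was 0.004624 with RLE scaling, 0.000692 without the filter, 0.005101 with DESeq2 and 0.001983 with the replicate block, and PRKAG2 was 0.004807 with either strand and 0.113 after thinning. For the interaction PRKAB1 was 0.01417 with RLE, 0.01258 with DESeq2 and 0.04545 after thinning. With a library left out, diet effects ran from -0.09088 to 0.01263 for STK11 in CD24-low cells. In CD24-high cells they ran from -0.1107 to 0.08726 for PRKAA1, -0.04096 to 0.1543 for PRKAB2, -0.1067 to 0.1278 for PRKAG1 and -0.09089 to 0.4727 for PRKAG2. The average ran from -0.08602 to 0.03886 for PRKAB2. Between populations under the fasting-mimicking diet they ran from -0.1529 to 0.007572 for PRKAB1 and -0.04206 to 0.1681 for PRKAG1. Under the control diet they ran from -0.172 to 0.07472 for PRKAA1, -0.2626 to 0.01595 for PRKAB1, -0.0383 to 0.03126 for PRKAB2, -0.1415 to 0.1387 for PRKAG2 and -0.02184 to 0.08942 for STK11. The interaction of PRKAB1 ran from -0.161 to 0.08468. The cause of these changes was not tested.

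Groups of 3 and 50 to 116 counts of PRKAG2 in the CD24-low libraries limit the precision of its fold change, and 16 counts of PRKAA2 allow no comparison.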
